A study of Arabidopsis thaliana with 19 samples.

Results

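The first 8 h interval of a root tip time course in seedlings of Arabidopsis thaliana was examined, which ran from the age of 4 days (4D) to the age of 4 days and 8 h (4D 8H). A total of 2 libraries of 4D 8H were compared with 3 libraries of 4D at the loci whose mean over all 19 libraries of the series was at least 5 FPKM (fragments per kilobase of transcript, scaled to the number of mapped reads). This rule kept 12905 of the 33201 loci of the table and used no difference between ages. All seedlings, at both ages, carried the PET111:GFP reporter and no other allele, received no treatment, and were grown on sucrose plates under long days. The reporter marks only the differentiated columella of the root cap, so the GFP-negative protoplasts sorted from root tips hold every other cell type of the tip and not stem cells alone. The study's methods describe this GFP-negative population as mostly stem cells. Each library pools many seedlings, and according to the study's methods the time of day of root collection was the same for every age. The question posed by the interval was which genes differ early in the course over a few hours of root growth.

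New root cells arise from initials that border the quiescent centre, a few cells that seldom divide, and these new cells divide, elongate and mature with distance from the tip. PIN and AUX/LAX carriers direct auxin towards and away from the tip, enzymes of the LONELY GUY (LOG) family release active cytokinin, and brassinosteroids promote division and elongation. Growing walls receive arabinogalactan proteins and extensins, which are heavily glycosylated and rich in hydroxyproline, and are loosened by expansins and xyloglucan endotransglucosylases. Abscisic acid, the hormone of drought and of seed maturation, induces late embryogenesis abundant (LEA) proteins and dehydrins.

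At 4D 8H, the 5 largest fitted decreases past the threshold, leaving out a locus listed at 0, were in LOG1, the glycosyltransferase gene UGT74E2, the LEA genes AT3G15670 and LEA4-5, and AT4G33467. Among the genes past the threshold in the other direction were the arabinogalactan genes AGP7 and AGP22, SAH7, and GA3, which encodes ent-kaurene oxidase of gibberellin synthesis. In all, 15 loci were higher and 6 were lower at 4D 8H, that is 0.163% of the 12905 loci (0.116% higher and 0.0465% lower). The test was limma on log2(FPKM + 1) with Benjamini-Hochberg adjustment over the 18087 loci that averaged 1 FPKM or more, and a threshold of 0.05. At an unadjusted p under 0.05 the counts were 1355 loci higher (10.5%) and 750 lower (5.81%). Both 4D 8H libraries lay above all 3 of 4D at 3598 loci (27.9%) and below all of them at 1696 (13.1%), and 61.9% of the loci had a fold change above 0, with a median log2 fold change of 0.071.

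These calls depended on single libraries. Without 4D replicate 1 there were 112 calls among all loci tested, in place of 24 (0.133%), and without 4D replicate 2, 4D replicate 3 or 5D replicate 2 there were 0. Without 4D 8H replicate 1 or 2 there were 3 and 1 calls. Leaving out a library of another age acts only through the shared spread, and gave up to 255 calls (without 4D 16H replicate 3). Each of the 21 loci kept the sign of its change in all of these fits. That was fixed in advance, as the ages did not overlap at any of them. Of the 24 calls 75% were higher at 4D 8H, against 64.3% of 28 calls after upper quartile scaling (18 higher, 10 lower) and 63.2% of 19 calls after quantile normalization (12 higher, 7 lower).

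**Figure D1:**
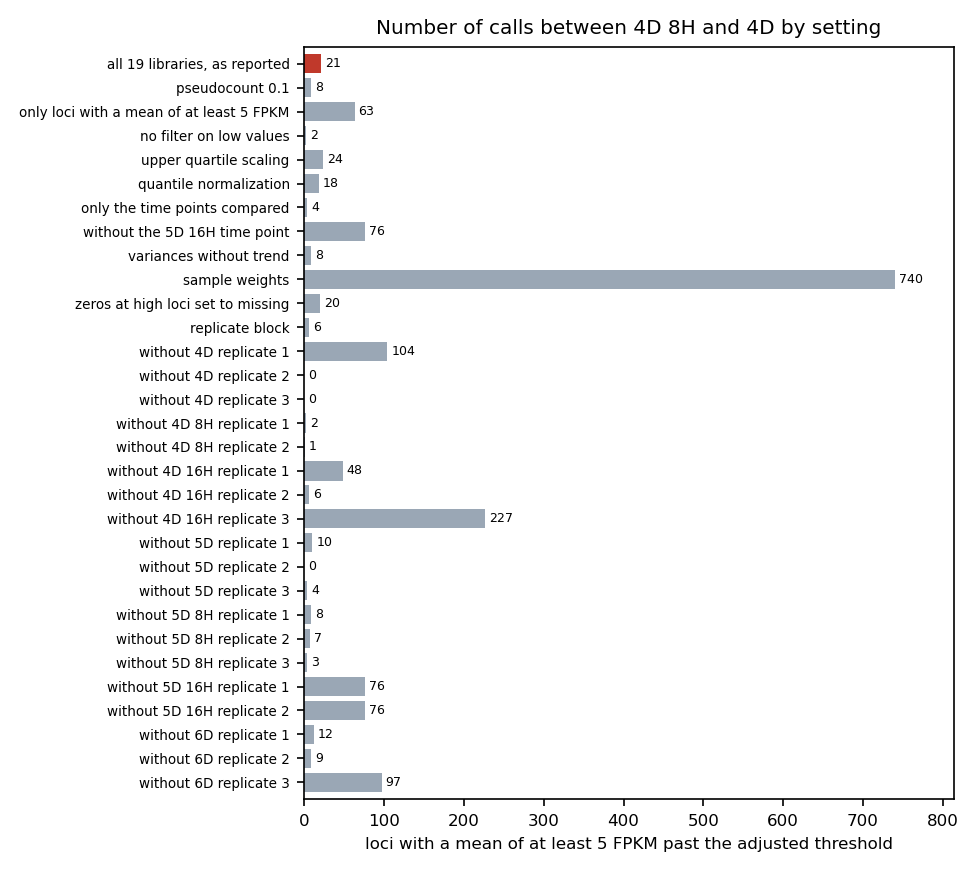
Number of loci averaging at least 5 FPKM and past the adjusted threshold between 4D 8H and 4D (horizontal axis) under each setting and with each library left out (rows). The bar in red is the reported fit with 21 loci, and the bars run from 0 to 740.

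Estimated depth was 10.45 and 12.95 M mapped reads in the 4D 8H libraries, against 18.8, 20.15 and 28 M mapped reads in the 4D libraries, so that age and depth cannot be told apart here. The 4D 8H libraries were the most alike, with a Spearman correlation of 0.984 over the loci tested. Replicate 1 of 4D correlated with them at 0.981 and 0.981, and with 4D replicates 2 and 3 at 0.980 and 0.976, whereas 4D replicates 2 and 3 correlated with 4D 8H at 0.966 to 0.974. It was the 4D library nearest to the 4D 8H mean at 6545 loci (50.7%). The median SD of log2(FPKM + 1) was 0.0817 at 4D 8H and 0.148 at 4D. Just outside the rule of 5 FPKM lay AT1G11700, with a mean over the series of 4.9995 FPKM, and just inside lay AT1G55880 with 5.0010 FPKM.

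Differentiated cell types were well represented at both ages. Markers fixed for the endodermis summed to 1512 and 1218 FPKM at 4D 8H and 1710, 2342 and 912 FPKM at 4D, with CASP1 of the Casparian strip alone at 463 and 390.2 FPKM at 4D 8H and 559, 849 and 328 FPKM at 4D. Root cap markers summed to 996 and 1135 FPKM at 4D 8H and 1201, 1244 and 1213 FPKM at 4D, lower without overlap. By contrast WOX5, which defines the quiescent centre, had 2.77 and 3.37 FPKM at 4D 8H and 3.67, 8.32 and 6.48 FPKM at 4D. Its 4D 8H values lay below those of 4D, with a log2 fold change of -0.76 ± 0.31 (SE) and an adjusted p of 0.27. AGL42, the other quiescent centre marker, went the other way at a low level. It had 0.892 and 0.975 FPKM at 4D 8H and 0.485, 0.291 and 0.784 FPKM at 4D, without overlap. The sums of these 2 markers overlapped, at 3.67 and 4.34 FPKM at 4D 8H and 4.15, 8.61 and 7.27 FPKM at 4D. The 4 phloem markers summed to 36.2 and 37.7 FPKM at 4D 8H and 21.8, 32 and 18 FPKM at 4D, higher without overlap. The same held for the 3 markers of dividing cells, at 26.6 and 26.1 FPKM at 4D 8H and 22.2, 23.9 and 20.8 FPKM at 4D, for the 2 cortex markers, at 5.73 and 4.36 FPKM at 4D 8H and 3.03, 2.56 and 4.28 FPKM at 4D, and for SHR and SCR of ground tissue and stele, at 17.7 and 14.3 FPKM at 4D 8H and 12.9, 13.6 and 9.57 FPKM at 4D. Single markers did not all follow these sums. CYCB1;1 of dividing cells overlapped, at 2.77 and 2.56 FPKM at 4D 8H and 2.33, 2.99 and 2.67 FPKM at 4D. SCR also overlapped, at 10.3 and 7.77 FPKM at 4D 8H and 8.39, 9.56 and 6.11 FPKM at 4D. The cortex sum was nearly all AT1G09750, as AT1G62500 was at most 0.151 FPKM. Most of the phloem sum was SUC2, at 28.7 and 30.02 FPKM at 4D 8H and 16.4, 24.9 and 13.3 FPKM at 4D. APL of the phloem overlapped, at 4.82 and 4.89 FPKM at 4D 8H and 3.45, 4.96 and 2.56 FPKM at 4D. Of 7 root cap markers 2 were lower and 0 higher without overlap, and SMB and CEL5 had log2 fold changes of 0.028 and 0.26. Of all 12905 loci 13.1% were lower and 27.9% higher without overlap, so such a separation is common and is given as a description. The sums for endodermis, root hairs, non-hair epidermis and xylem overlapped between the ages. The part of cell composition in the results was not tested. In bulk samples fewer cells of a type and less RNA per cell cannot be told apart.

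The 6 decreases past the threshold included LOG1, UGT74E2 and a pair of LEA genes. LOG1 (AT2G28305), a LONELY GUY enzyme that converts cytokinin nucleotides to active bases, had 2.51 and 2.91 FPKM in the 4D 8H libraries, against 6.98, 13 and 8.40 FPKM in the 4D libraries. The 4D 8H values were below every 4D value, and LOG1 fell by 1.46 ± 0.21 on the log2 scale (SE; adjusted p = 0.0246). UGT74E2 (AT1G05680), which glycosylates the auxin precursor indole-3-butyric acid, had 41.1 and 48.8 FPKM in the 4D 8H libraries, against 107, 109 and 120.3 FPKM in the 4D libraries. All 3 values of 4D stood above 100 FPKM and both values of 4D 8H below 50 FPKM, and UGT74E2 fell by 1.30 ± 0.24 on the log2 scale (SE; adjusted p = 0.0463).

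Both LEA genes were at least 1.5 times as high in the lowest 4D library as in the highest 4D 8H library. AT3G15670 had 36 and 38.5 FPKM in the 4D 8H libraries, against 78.4, 86.4 and 101 FPKM in the 4D libraries, with a log2 fold change of -1.22 ± 0.19 (SE; adjusted p = 0.0289). LEA4-5 (AT5G06760) had 75.8 and 70.8 FPKM in the 4D 8H libraries, against 138, 221 and 126 FPKM in the 4D libraries, and fell by 1.09 ± 0.17 on the log2 scale (SE; adjusted p = 0.0289). The uncharacterized AT4G33467 had 59 and 51.3 FPKM in the 4D 8H libraries, against 115, 141 and 106 FPKM in the 4D libraries, without overlap (log2 fold change -1.11, adjusted p = 0.0457). AT5G41109, an uncharacterized locus of only 141 nucleotides, was listed at 0 in both 4D 8H libraries and at 20.9, 19.4 and 32.5 FPKM in the 4D libraries. It was between 0 and 61.5 FPKM in the other 14 libraries, so that the value of 0 was not particular to 4D 8H, and at this length an FPKM is a poor estimate.

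The loci past the threshold that were higher at 4D 8H included 3 of the wall glycoprotein list. AGP7 (AT5G65390), an arabinogalactan protein, had 185 and 197 FPKM in the 4D 8H libraries, against 112, 91.8 and 94.9 FPKM in the 4D libraries. AGP22 (AT5G53250), a short arabinogalactan peptide, had 691 and 700.0 FPKM in the 4D 8H libraries, against 467, 383 and 358 FPKM in the 4D libraries. SAH7 (AT4G08685), annotated in the Ole e 1 allergen and extensin family, had 24.2 and 28.1 FPKM in the 4D 8H libraries, against 12, 15.2 and 9.85 FPKM in the 4D libraries. In all 3 genes both 4D 8H libraries stood above the highest 4D library, and the log2 fold changes were 0.94 ± 0.13, 0.80 ± 0.15 and 1.04 ± 0.19 (SE), with adjusted p-values of 0.0246, 0.0463 and 0.0463.

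GA3 (AT5G25900), the ent-kaurene oxidase, had 26.7 and 24.1 FPKM in the 4D 8H libraries, against 13.7, 13.4 and 12.4 FPKM in the 4D libraries. The spread within each age was small against the gap, and GA3 rose by 0.90 ± 0.15 on the log2 scale (SE; adjusted p = 0.0314). Among regulators, MIF1 (AT1G74660), a mini zinc finger protein, had 52.2 and 47.3 FPKM in the 4D 8H libraries, against 23.9, 30.1 and 24.4 FPKM in the 4D libraries (log2 fold change 0.91, adjusted p = 0.0463). The Dof zinc finger gene AT2G28810 had 15 and 14.1 FPKM in the 4D 8H libraries, against 7.61, 8.83 and 6.47 FPKM in the 4D libraries (log2 fold change 0.85, adjusted p = 0.0466). Neither gene overlapped between the ages. AT5G44350, annotated as an ethylene-responsive nuclear protein, was at 51.9 and 57.7 FPKM at 4D 8H and 29.2, 29 and 26.3 FPKM at 4D, and its smallest 4D 8H value exceeded its largest 4D value by more than 1.5 times.

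The other 8 increases past the threshold included PDLP7 and AT1G62480. PDLP7 (AT5G37660), a protein of the plasmodesmata, the channels between plant cells, had 24.2 and 22.6 FPKM in the 4D 8H libraries, against 13.3, 12.8 and 9.28 FPKM in the 4D libraries (log2 fold change 0.95, adjusted p = 0.0457). AT1G62480, annotated as related to vacuolar calcium-binding proteins, had the highest level of the 21 loci, with 1053 and 1100.1 FPKM in the 4D 8H libraries, against 608, 613 and 471 FPKM in the 4D libraries (log2 fold change 0.94, adjusted p = 0.0457). The other 6 were TRM28 (AT5G03670), AT1G18740, AT1G55360, AT5G40980, the kinase-like AT2G40980, and AT1G75388, which the annotation used here does not describe. Their log2 fold changes lay between 0.60 (AT1G75388) and 1.01 (AT1G55360), with adjusted p-values of 0.0289 to 0.0463, and in none did the ages overlap. Past the threshold but below the level of 5 FPKM were AT5G53830, AT4G16270 and AT4G09731, all higher at 4D 8H.

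**Figure D2:**
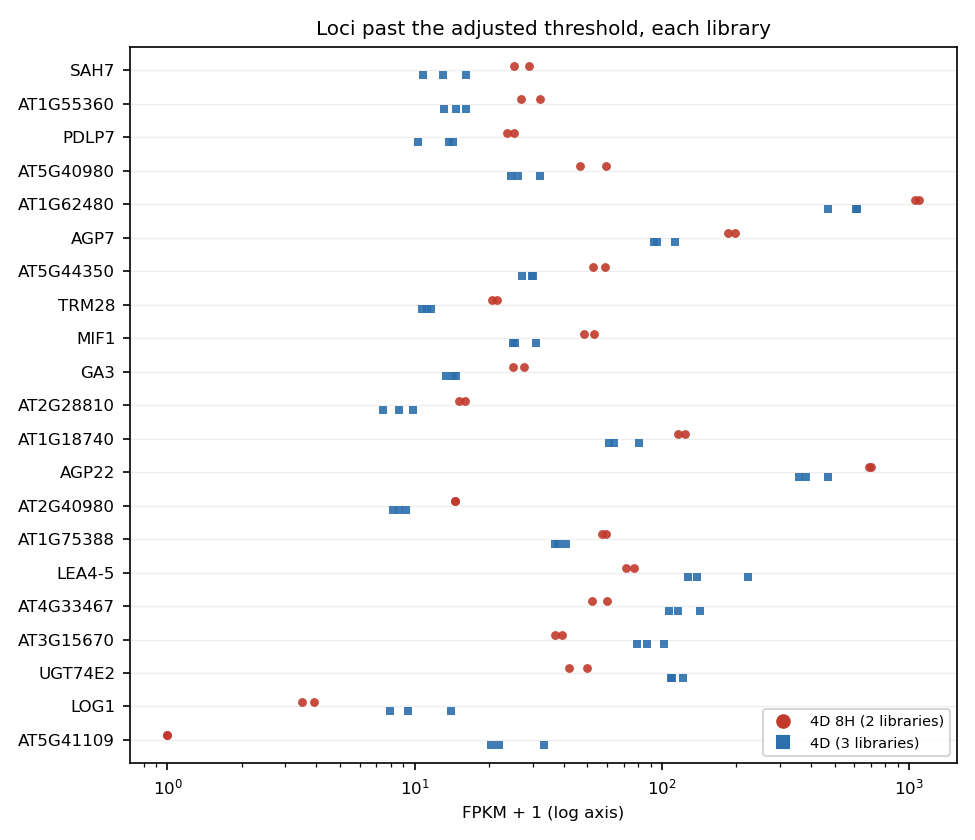
FPKM + 1 on a log axis for the 21 loci past the threshold, ordered by log2 fold change, with 4D 8H libraries as red circles above and 4D libraries as blue squares below in each row. In every row the 2 values of 4D 8H lie on one side of the 3 values of 4D, and AT5G41109 is at 0 FPKM in both 4D 8H libraries.

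The 250 bases upstream of the annotated start are shown for 4 of the 6 calls with the smallest p, of which LOG1 and AT3G15670 fell and AGP7 and AT1G18740 rose. They come from RefSeq assembly TAIR10.1, whose nuclear sequence is that of the TAIR10 build named for the files, and run 5′ to 3′ on the gene's strand. Capitals mark matches on either strand to a motif searched. The LOG1 window is chr2:12080773-12081022 on the plus strand, that of AT3G15670 chr3:5310989-5311238 on the minus strand, that of AGP7 chr5:26129548-26129797 on the minus strand and that of AT1G18740 chr1:6463599-6463848 on the plus strand.
LOG1: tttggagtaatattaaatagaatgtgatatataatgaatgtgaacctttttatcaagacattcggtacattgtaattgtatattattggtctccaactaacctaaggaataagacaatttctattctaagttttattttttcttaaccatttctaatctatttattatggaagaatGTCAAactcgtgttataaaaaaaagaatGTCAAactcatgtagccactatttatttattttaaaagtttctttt
AT3G15670: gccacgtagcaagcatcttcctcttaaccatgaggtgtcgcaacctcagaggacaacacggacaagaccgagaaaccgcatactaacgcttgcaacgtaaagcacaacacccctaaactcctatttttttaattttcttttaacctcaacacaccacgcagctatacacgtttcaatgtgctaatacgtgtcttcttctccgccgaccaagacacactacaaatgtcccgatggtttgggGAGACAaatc
AGP7: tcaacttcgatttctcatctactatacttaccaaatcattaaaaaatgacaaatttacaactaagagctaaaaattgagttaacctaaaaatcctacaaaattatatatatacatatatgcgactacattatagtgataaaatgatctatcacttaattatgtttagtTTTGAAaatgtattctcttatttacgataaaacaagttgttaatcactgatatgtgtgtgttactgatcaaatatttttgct
AT1G18740: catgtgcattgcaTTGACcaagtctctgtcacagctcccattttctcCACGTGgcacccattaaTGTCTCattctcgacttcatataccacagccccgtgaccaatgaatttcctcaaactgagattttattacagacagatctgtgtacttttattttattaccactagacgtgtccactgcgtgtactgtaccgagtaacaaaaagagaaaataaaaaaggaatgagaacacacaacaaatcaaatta

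The LOG1 window held the W-box core TTGAC, known as a site of WRKY factors, on the reverse strand at 74 and 46 bases upstream of the start, and that of AT1G18740 held it at 237 bases. TTGAC occurred in 45.7% of the 12866 promoters of the loci examined. AT1G18740 also held the G-box CACGTG at 203 bases (7.89% of promoters) and the auxin response core TGTCTC at 186 bases (10.4%), which AT3G15670 had on the reverse strand at 10 bases. AGP7 held TTTGAA, the cell cycle homology core that CXC-domain proteins such as TCX2 are known to bind, at 82 bases (38.3%). Of all calls with a promoter, TTGAC was in 3 of 14 higher and 3 of 6 lower, TGTCTC in 4 and 3, TTTGAA in 3 and 1, and CACGTG in 1 and 2. None of the other motifs searched, also on both strands, was in the 4 windows shown. They were the telo box AAACCCTA (3.36% of promoters), the site II elements TGGGCC (16.9%) and TGGGCT (14.9%), and the E2F sites TTTCCCGC (0.451%) and TTTGGCGC (0.35%). They further included the mitosis-specific activator core AACGG (21.5%), the as-1 core TGACG (19.2%), the GCC box GCCGCC (1.94%), the evening element AAATATCT (4.97%) and a second cell cycle homology core, TTCGAA (7.9%). A match is a description of the letters only.

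**Figure D3:**
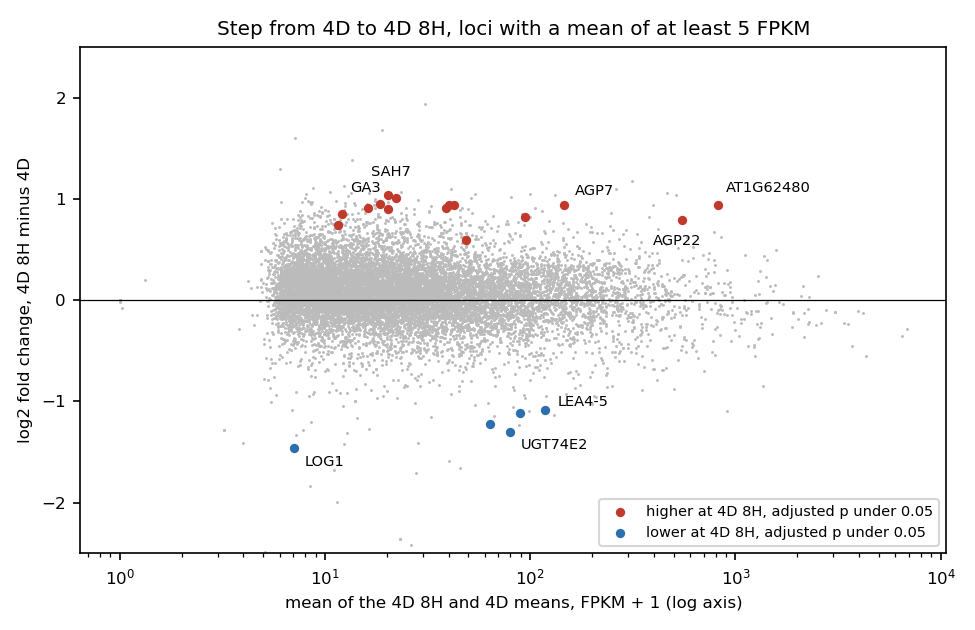
Log2 fold change, 4D 8H minus 4D, against the mean of the 2 age means as FPKM + 1 on a log axis, for loci averaging at least 5 FPKM. Grey points are all loci, red points the increases and blue points the decreases past the threshold, and 17 loci with a change beyond 2.5, among them 1 call, lie outside the range drawn.

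A total of 32 gene groups are described, which were picked from a longer set of lists after their values were seen, so that their order carries no weight. The counts of each group stand against the shares of all 12905 loci. Of these 61.9% were higher, 10.5% higher and 5.81% lower at an unadjusted p under 0.05, and 27.9% higher and 13.1% lower without overlap. The median of all loci, 0.071, was itself 0.0249 after upper quartile scaling and 0.0037 after quantile normalization. Group medians under these scalings are to be read against those values. Most arabinogalactan proteins and extensins were higher at 4D 8H. Of 64 such genes 49 had a mean of at least 5 FPKM, of which 44 were higher and 5 lower at 4D 8H, 22 and 0 at an unadjusted p under 0.05, and the 3 named above passed the adjusted threshold. Their median log2 fold change was 0.40, against 0.071 over all loci, and lay between 0.32 and 0.58 when each of the 5 libraries was left out. AGP13 (AT4G26320), at 967 and 953 FPKM at 4D 8H and 668, 599 and 539.5 FPKM at 4D, did not overlap between the ages but missed the threshold (adjusted p = 0.0698).

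Expansins and xyloglucan enzymes had a median of 0.18, with 31 of 36 members higher and 5 lower, 8 and 0 at an unadjusted p under 0.05. Without 4D replicate 1 the median was 0.32, and none passed the adjusted threshold. XTH16 (AT3G23730) had 20.6 and 21.5 FPKM in the 4D 8H libraries, against 11.8, 8.11 and 9.14 FPKM in the 4D libraries (log2 fold change 1.06 ± 0.21, SE; adjusted p = 0.0518). XTH15 (AT4G14130) had 315 and 318 FPKM at 4D 8H and 181, 213 and 137 FPKM at 4D, and XTH21 (AT2G18800) 142 and 150.4 FPKM at 4D 8H and 87.1, 77.5 and 72.8 FPKM at 4D, with adjusted p-values of 0.0518 and 0.0721. XTH15 and XTH16 are close relatives, so that reads may be shared between them. Cellulose synthases and their relatives had a median of 0.18 (20 of 23 higher), which was 0.11 without 4D replicate 2, with CSLC04, a synthase of the xyloglucan backbone, at 141 and 147 FPKM at 4D 8H and 119, 90.6 and 107 FPKM at 4D (adjusted p = 0.12).

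Several auxin carriers were higher in both 4D 8H libraries than in all 4D libraries but missed the adjusted threshold. PIN3 (AT1G70940), an efflux carrier of the columella and the stele, had 56.5 and 53.9 FPKM in the 4D 8H libraries, against 25.7, 24.4 and 25.4 FPKM in the 4D libraries. The ages were separated by more than 25 FPKM, with a log2 fold change of 1.102 ± 0.22 (SE) and an adjusted p of 0.0518. PIN4 (AT2G01420) had 42.7 and 40.9 FPKM at 4D 8H and 28.8, 19.6 and 17.4 FPKM at 4D, PIN7 (AT1G23080) 25.9 and 25 FPKM at 4D 8H and 17.2, 13.2 and 10.6 FPKM at 4D, and LAX3 (AT1G77690), an influx carrier, 109.5 and 102 FPKM at 4D 8H and 60.6, 60.4 and 37.4 FPKM at 4D. None of these overlapped between the ages, and their adjusted p-values were 0.0688, 0.0767 and 0.0767. Over the whole auxin transport list 13 of 19 members were higher and 6 lower, where 61.9% of all loci were higher. At an unadjusted p under 0.05 there were 8 and 2, against 10.5% and 5.81% of all loci. Without overlap 9 were higher and 3 lower, against 27.9% and 13.1% of all loci, and the lowest log2 fold change was -0.79. None passed the adjusted threshold, and the list had a median of 0.23. The median was 0.15 without 4D replicate 2 and 0.12 after quantile normalization.

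Brassinosteroid genes followed the same direction, with 13 of 16 higher and 3 lower (5 and 1 at an unadjusted p under 0.05) and a median of 0.23, which was 0.13 without 4D replicate 2 and 0.37 with 4D 8H replicate 2 left out. BR6OX1 (AT5G38970), an oxidase of the last steps of synthesis, had 14.7 and 13 FPKM in the 4D 8H libraries, against 7.33, 7.51 and 5.06 FPKM in the 4D libraries (adjusted p = 0.0688). Its relative BR6OX2 (AT3G30180) had 31.8 and 29.6 FPKM at 4D 8H and 19.4, 23 and 15.6 FPKM at 4D, and DWF4, which catalyses a rate-limiting hydroxylation, 31.8 and 28.8 FPKM at 4D 8H and 22.9, 19.5 and 14.3 FPKM at 4D. The ages did not overlap in these 3 genes, and the adjusted p-values of BR6OX2 and DWF4 were 0.0851 and 0.176. BRL2 (AT2G01950), a BRI1-like receptor kinase of the vasculature, had 10.4 and 10.4 FPKM at 4D 8H and 5.41, 4.93 and 4.23 FPKM at 4D (adjusted p = 0.0721). DWF1 is a member listed at 0 in 1 of the 5 libraries, which sets the lowest value of the list.

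Of 23 cytokinin genes 14 were higher and 9 lower, a share near the 61.9% of all loci above 0, with 5 and 5 at an unadjusted p under 0.05 (10.5% and 5.81% of all loci), and LOG1 was the member past the adjusted threshold. Their median was 0.17, against 0.089 without 4D replicate 1 and 0.073 after quantile normalization. LOG7 (AT5G06300), a paralogue of LOG1 with a much higher level, had 167 and 183 FPKM at 4D 8H and 222, 334 and 268 FPKM at 4D, also lower without overlap (adjusted p = 0.116). The receptor gene HK2 (AT5G35750) had 8.16 and 7.20 FPKM at 4D 8H and 4.90, 4.54 and 5.47 FPKM at 4D, and the phosphotransfer gene AHP3 87.1 and 80.3 FPKM at 4D 8H and 67, 59 and 60.05 FPKM at 4D, both higher without overlap (adjusted p = 0.12 and 0.147).

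Of the 33 signalling peptide genes at this level 23 were higher and 10 lower, 9 and 1 at an unadjusted p under 0.05, with a median of 0.18, where 61.9% of all loci were higher. The median was 0.081 without 4D 8H replicate 1 and 0.10 after quantile normalization. CLE6 (AT2G31085) had 35.2 and 26.1 FPKM in the 4D 8H libraries, against 15.9, 13.8 and 12.4 FPKM in the 4D libraries, and its neighbour CLE5 (AT2G31083) had 138 and 127 FPKM at 4D 8H and 69.9, 83.8 and 44 FPKM at 4D. Both are precursors of small CLAVATA3-like peptides, and neither overlapped between the ages (adjusted p = 0.0612 and 0.113). PSK3, a phytosulfokine precursor, had 73.4 and 69.2 FPKM at 4D 8H and 55.2, 48.4 and 43.1 FPKM at 4D (adjusted p = 0.0865). Of the receptors 10 of 16 were higher and 6 lower, 7 and 0 at an unadjusted p under 0.05, with a median of 0.19 (0.11 after quantile normalization), PEPR2 at 34.2 and 35.8 FPKM at 4D 8H and 28.1, 18.9 and 15.1 FPKM at 4D and THESEUS1 (THE1), a receptor kinase of wall sensing, at 50.3 and 42.4 FPKM at 4D 8H and 36.3, 24.1 and 26.9 FPKM at 4D. Their adjusted p-values were 0.0855 and 0.124.

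All 16 xylem genes at this level had a fold change above 0, with a median of 0.37 (0.28 to 0.43 with a library left out), 6 of them at an unadjusted p under 0.05 and none past the adjusted threshold. LHW (AT2G27230), a factor of early vascular divisions, had 12.1 and 12 FPKM at 4D 8H and 8.02, 8.08 and 7.43 FPKM at 4D (adjusted p = 0.0767). The HD-ZIP III genes ATHB-15 and HB-8, which act in vascular patterning, had 8.71 and 9.22 FPKM at 4D 8H and 5.44, 5.59 and 3.62 FPKM at 4D, and 12.7 and 13.2 FPKM at 4D 8H and 8.24, 9.18 and 5.56 FPKM at 4D (adjusted p = 0.0993 and 0.233). The 6 xylem markers had sums of 340 and 427 FPKM at 4D 8H and 284, 370 and 379 FPKM at 4D, which overlapped, although CESA4 and CESA7 of secondary wall cellulose did not, with CESA4 at 28.2 and 33.7 FPKM at 4D 8H and 23.1, 25 and 22.6 FPKM at 4D and CESA7 at 27.5 and 30.9 FPKM at 4D 8H and 21.1, 25.5 and 22.9 FPKM at 4D. The marker VND7, with a series mean below 5 FPKM, had a log2 fold change of -0.20. It overlapped, at 2.75 and 5.00 FPKM at 4D 8H and 4.43, 4.46 and 4.48 FPKM at 4D. SUC2, the sucrose carrier of phloem companion cells, was at 28.7 and 30.02 FPKM at 4D 8H and 16.4, 24.9 and 13.3 FPKM at 4D (adjusted p = 0.303).

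Of 36 MYB factors 31 were higher and 5 lower, 13 and 2 at an unadjusted p under 0.05, with a median of 0.27 and none past the adjusted threshold. MYB63 (AT1G79180), an activator of lignin genes, had 17.9 and 18.7 FPKM in the 4D 8H libraries, against 11.9, 10.9 and 9.36 FPKM in the 4D libraries (adjusted p = 0.0518). MYB4 (AT4G38620), a repressor of phenylpropanoid genes, had 65.1 and 78.3 FPKM at 4D 8H and 41.9, 32.7 and 28.8 FPKM at 4D, and MYB40 36.9 and 31.3 FPKM at 4D 8H and 17.4, 20.8 and 17.1 FPKM at 4D, with adjusted p-values of 0.104 and 0.0698. In none of the 3 did the ages overlap. Of the glucosinolate genes, 15 of 20 were higher and 5 lower, 7 and 0 at an unadjusted p under 0.05 (median 0.16, or 0.089 without 4D replicate 2 and 0.11 with 4D 8H replicate 1 left out), with CYP79B2, which commits tryptophan to indole glucosinolates, at 20.6 and 20.07 FPKM at 4D 8H and 13, 14.3 and 11.7 FPKM at 4D (adjusted p = 0.139).

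Touch and wound genes, which respond within minutes to handling and to protoplasting, were mostly higher. Of 18 members 16 were higher and 2 lower, 8 and 2 at an unadjusted p under 0.05, none passed the adjusted threshold, and the median was 0.34. ERF13 (AT2G44840) had 134 and 151 FPKM in the 4D 8H libraries, against 85, 76.9 and 105 FPKM in the 4D libraries (adjusted p = 0.0518). WRKY40 had 583.3 and 646 FPKM at 4D 8H and 477, 356 and 468 FPKM at 4D, and STZ 269 and 332 FPKM at 4D 8H and 196, 129 and 229 FPKM at 4D, both without overlap (adjusted p = 0.12 and 0.176). The summed level of the list was 4723 and 5296 FPKM at 4D 8H and 4088, 3491 and 4208 FPKM at 4D. The part of handling in the other results was not tested.

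Genes for making ribosomes had small fold changes, mostly above 0. Of 178 cytosolic ribosomal protein genes 172 were higher and 6 lower. At an unadjusted p under 0.05 there were 20 and 1, the 20 being near the share of all loci (10.5% higher and 5.81% lower). The ages did not overlap at 155 higher and 1 lower, against 27.9% and 13.1% of all loci. The median log2 fold change was 0.30 (0.25 to 0.37 with a library left out), and none passed the adjusted threshold. The summed level was 25149 and 23302 FPKM at 4D 8H, against 21651, 19315 and 19867 FPKM at 4D. AT3G53430 (ribosomal protein L11 family), one of the members with the smallest p and above the upper quartile of the list (0.36), was at 185 and 157 FPKM at 4D 8H and 131, 119.7 and 107 FPKM at 4D (log2 fold change 0.52, adjusted p = 0.233). The member lower without overlap was SAG24 (AT1G66580), an L10 family member, at 947 and 1062 FPKM at 4D 8H and 1154, 1603 and 1708 FPKM at 4D (log2 fold change -0.55, adjusted p = 0.183).

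Ribosome assembly genes of the nucleolus had a median of 0.28, with 97 of 104 higher and 7 lower, 15 and 0 at an unadjusted p under 0.05, led by AT4G15770 at 20.7 and 16.9 FPKM at 4D 8H and 10.4, 10.4 and 8.01 FPKM at 4D (adjusted p = 0.085). Many genes of both lists have near-identical copies, and reads may be divided between them. All 11 S phase genes (median 0.21), all 10 G2/M genes (0.19) and 15 of 16 histone genes (0.21) had fold changes above 0. In each list 1 gene was higher at an unadjusted p under 0.05, no more than the 10.5% of all loci. The S phase median was 0.13 without 4D 8H replicate 1 and 0.078 after quantile normalization, which gave 0.080 for G2/M genes. PCNA2, the replication clamp, had 15.6 and 11.7 FPKM at 4D 8H and 9.07, 8.29 and 10.9 FPKM at 4D, and CDC20.1, an activator of anaphase, 9.35 and 7.83 FPKM at 4D 8H and 6.73, 5.55 and 6.04 FPKM at 4D. The ages did not overlap in these 2 genes, at adjusted p-values of 0.279 and 0.29.

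TCX2 (AT4G14770), the CXC-domain factor at the centre of the study, was at 2.97 and 2.17 FPKM at 4D 8H and 2.27, 2.60 and 1.90 FPKM at 4D. The ages overlapped, and the log2 fold change was 0.13 ± 0.21 (SE; adjusted p = 0.802). TCX2 has a series mean below 5 FPKM and is given for its role. Of the study's predicted TCX2 targets, a list drawn from its own network model, 77 of 82 were higher and 5 lower, 14 and 0 at an unadjusted p under 0.05, with a median of 0.28, and the list was chosen on data of the same study and is not independent evidence. The first-neighbour factors of TCX2 had a median of 0.074 (21 of 31 higher), which was -0.024 after quantile normalization, 0.030 after upper quartile scaling, 0.011 without 4D 8H replicate 1 and 0.15 with 4D 8H replicate 2 left out. GRP2, a predicted target, had 90.3 and 89.3 FPKM at 4D 8H and 72.6, 71.7 and 70.9 FPKM at 4D (adjusted p = 0.241).

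Factors of the stem cell niche went both ways. Of 8 at this level 4 were higher and 4 lower, with log2 fold changes between -0.76 (WOX5) and 0.74. At an unadjusted p under 0.05 there were 2 and 1 (10.5% and 5.81% of all loci), and without overlap 3 and 2 (27.9% and 13.1% of all loci). Their median of 0.031 changed sign under both other scalings and without 4D replicate 3 (-0.011) or 4D 8H replicate 1 (-0.051). NUC (NUTCRACKER) had 14.9 and 14.3 FPKM at 4D 8H and 8.46, 7.54 and 9.15 FPKM at 4D, and PLT1 (PLETHORA 1) 7.64 and 7.68 FPKM at 4D 8H and 4.58, 6.26 and 3.20 FPKM at 4D, both higher without overlap at adjusted p-values of 0.198 and 0.241. Of other stem cell marker genes, TMO5 (AT3G25710, listed as BHLH32 in the annotation used here), the study's marker of xylem initials, had 24.7 and 29.2 FPKM at 4D 8H and 19.8, 15.3 and 19.3 FPKM at 4D. FEZ, of the epidermis and root cap initials, had 6.43 and 6.77 FPKM at 4D 8H and 4.95, 6.25 and 3.06 FPKM at 4D (adjusted p = 0.336 for TMO5 and 0.556 for FEZ). CVP2 and AGL42, both below 5 FPKM in the series, had log2 fold changes of 0.51 and 0.36, CRF2 and FLP, partners of TCX2 in the model, of 0.074 and 0.018, and AT2G47680 of 0.19, with adjusted p-values of 0.255 to 0.979. The sign of the TCX2, CRF2 and FLP values changed under another scaling.

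In the opposite direction, abscisic acid and drought genes were mostly lower at 4D 8H. Of 43 members 33 were lower and 10 higher, 14 and 2 at an unadjusted p under 0.05, against 5.81% and 10.5% of all loci, with a median of -0.23 (-0.26 to -0.22 with a library left out). LEA4-5 was the member past the adjusted threshold. LTI78 (AT5G52310), a classical marker of drought and cold, had 112 and 119.9 FPKM in the 4D 8H libraries, against 189.7, 258 and 193 FPKM in the 4D libraries (adjusted p = 0.0518). The dehydrin gene LTI30 had 949 and 968 FPKM at 4D 8H and 1317, 1865 and 2113 FPKM at 4D, without overlap (adjusted p = 0.0767). PYL4, an abscisic acid receptor, went against the list with 63.6 and 68.9 FPKM at 4D 8H and 46.6, 46.9 and 36.8 FPKM at 4D (adjusted p = 0.0518). ERD14, another dehydrin gene, had a 0 in replicate 2 of 4D 8H although the other libraries of the series were all at 1532 FPKM or above, and no fold change is given for it.

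Glutathione transferases had a median of -0.25, with 24 of 32 lower and 8 higher, 12 and 4 at an unadjusted p under 0.05, and none past the adjusted threshold. These enzymes conjugate toxic compounds to glutathione. GSTU24 had 503 and 542 FPKM at 4D 8H and 677, 813 and 651 FPKM at 4D, and GSTU7 495 and 554 FPKM at 4D 8H and 669, 777 and 909 FPKM at 4D, both lower without overlap, whereas GSTU28 had 62.3 and 52.2 FPKM at 4D 8H and 35.4, 26.7 and 34 FPKM at 4D (adjusted p = 0.147, 0.209 and 0.12). Other detoxification and redox genes were lower in 30 of 45 cases (5 at an unadjusted p under 0.05, median -0.091, or -0.053 without 4D replicate 1 and -0.14 under either other scaling), with TRX5, a thioredoxin, at 309 and 303 FPKM at 4D 8H and 413, 568 and 504 FPKM at 4D (adjusted p = 0.132). Of UDP glycosyltransferases 18 were higher and 16 lower, the median of 0.0033 changed sign under either other scaling and without any of 4 of the 5 libraries, UGT74E2 passed the threshold, and UGT76B1, which glycosylates salicylic acid and related compounds, had 295 and 254 FPKM at 4D 8H and 364, 424 and 526 FPKM at 4D (adjusted p = 0.0942).

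Of 14 sugar starvation genes 13 were lower and 1 higher, 4 and 0 at an unadjusted p under 0.05 (median -0.15). The median was -0.088 without 4D replicate 3, -0.26 without 4D replicate 2 and -0.23 without 4D replicate 1 or after quantile normalization. MSS1 (AT5G26340), a hexose carrier, had 169.6 and 175 FPKM in the 4D 8H libraries, against 224, 322 and 333 FPKM in the 4D libraries (adjusted p = 0.12). TPS11, of trehalose metabolism, had 44.6 and 53.5 FPKM at 4D 8H and 69.6, 80.5 and 102 FPKM at 4D, and ASN1, an asparagine synthetase, 14.3 and 16.5 FPKM at 4D 8H and 20.24, 42.9 and 126 FPKM at 4D, also without overlap (adjusted p = 0.148 and 0.151). The values of ASN1 at 4D differed among themselves by more than 6 times, and those of DIN2, 2.63 and 3.99 FPKM at 4D 8H and 2.84, 12.4 and 37.9 FPKM at 4D, by more than 13 times, so that neither fold change is well determined. Phosphate and sulfate starvation genes had 26 of 39 lower and 13 higher. At an unadjusted p under 0.05 there were 5 lower and 4 higher, against 5.81% and 10.5% of all loci, the 4 being near that share. Their median was -0.11 (-0.033 without 4D replicate 3, -0.17 without 4D replicate 1 and after quantile normalization). RNS1, a ribonuclease, was at 11.1 and 11.7 FPKM at 4D 8H and 24.9, 61.4 and 40.2 FPKM at 4D (adjusted p = 0.148).

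Of the jasmonate genes 13 were higher and 17 lower, 5 and 6 at an unadjusted p under 0.05, with a median of -0.084 (-0.039 without 4D replicate 3, -0.055 with 4D 8H replicate 2 left out, -0.14 after quantile normalization). LOX5, a lipoxygenase, had 28.3 and 27.7 FPKM at 4D 8H and 18.1, 18.5 and 15.1 FPKM at 4D, and ACX1, an acyl-CoA oxidase, 117 and 113 FPKM at 4D 8H and 151, 178 and 165 FPKM at 4D (adjusted p = 0.0564 and 0.0975). Core clock genes had a median of -0.0097, which lay between -0.0032 and 0.031 without 4D replicate 1 or 2 or either 4D 8H replicate and was -0.076 after quantile normalization. Of 16 clock genes 7 were higher and 9 lower, 1 and 0 at an unadjusted p under 0.05 (10.5% and 5.81% of all loci). The 1 gene was CHE (AT5G08330, listed as TCP11 in the annotation used here), at 22.3 and 22.9 FPKM at 4D 8H and 13.8, 10.6 and 13 FPKM at 4D (adjusted p = 0.0993). Root cap and endodermal barrier genes had medians of -0.043 and -0.043 that changed sign when a library was left out (-0.064 to 0.071 and -0.51 to 0.21), although MYB36, the master factor of the Casparian strip, had 102 and 87.4 FPKM at 4D 8H and 78.7, 72.5 and 69.2 FPKM at 4D (adjusted p = 0.196). The root cap list includes the auxin carriers PIN3 and PIN7 named above and lacks PASPA3, one of the fixed root cap markers. Root hair genes had a median of 0.19 that was 0.0054 without 4D replicate 3, 0.091 without 4D replicate 2 and 0.39 without 4D replicate 1. The 10 photosynthesis genes at this level, a sign of shoot tissue, had a median of 0.20, which was 0.072 without 4D replicate 3, 0.30 without 4D replicate 2 and 0.097 after quantile normalization, and all 45 listed genes, at any level, summed to 131 and 137 FPKM at 4D 8H and 126, 143 and 104 FPKM at 4D.

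**Figure D4:**
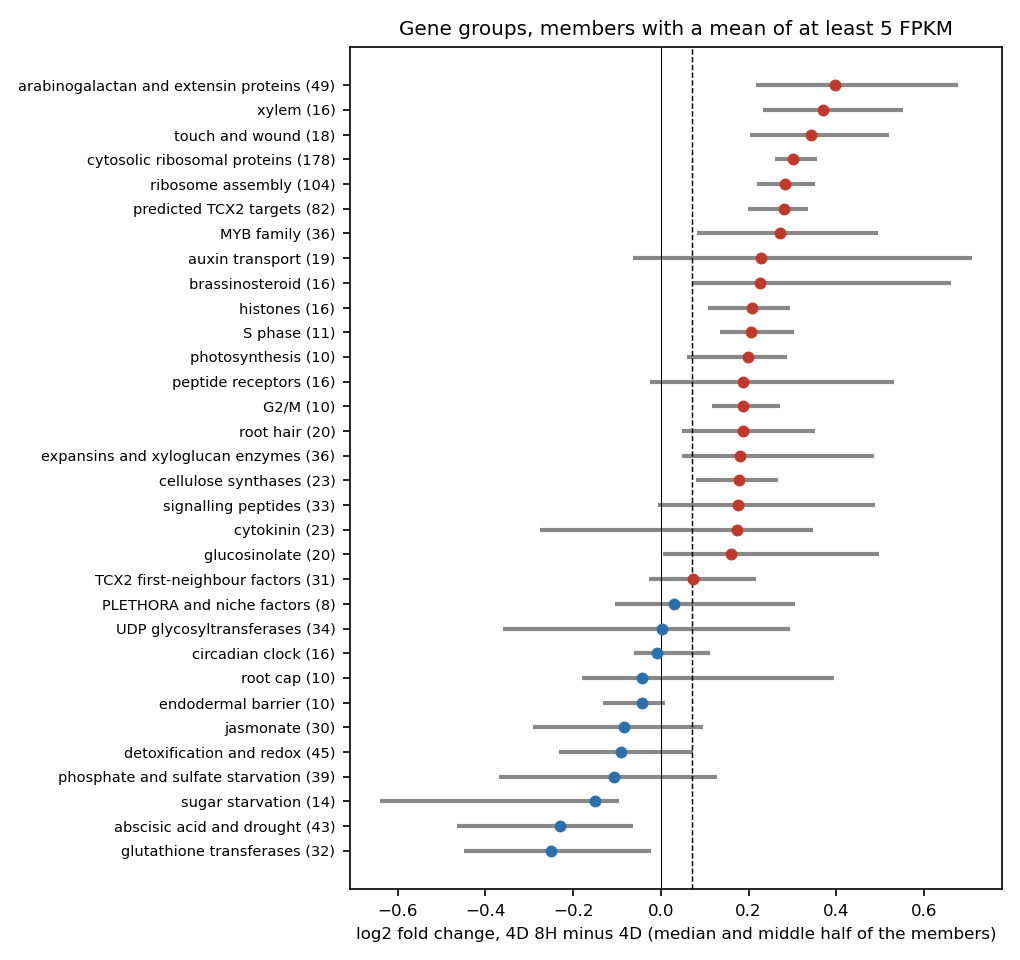
Median log2 fold change (points) and the range from the lower to the upper quartile (grey bars) of the members of 32 gene groups, 4D 8H minus 4D, with the number of members in parentheses. The dashed line is the median of all 12905 loci, 0.071, the solid line is 0, and the points of the groups drawn lie between 0.40 and -0.25.

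Some large fitted changes missed the adjusted threshold. At loci with transcripts of at least 300 nucleotides whose ages did not overlap, the largest decreases with a value above 0 in each library included RNS1 and AT1G71140, a MATE efflux carrier gene, at 14.7 and 24 FPKM at 4D 8H and 29, 72.1 and 109 FPKM at 4D (adjusted p = 0.224). They further included ADH1 (alcohol dehydrogenase), at 2.95 and 2.94 FPKM at 4D 8H and 5.01, 11.6 and 11.8 FPKM at 4D, GA20OX5, at 3.57 and 3.37 FPKM at 4D 8H and 9.72, 13.6 and 7.23 FPKM at 4D, and AER (alkenal reductase), at 6.47 and 5.79 FPKM at 4D 8H and 10.2, 22.2 and 20.24 FPKM at 4D. In RNS1, AT1G71140, ADH1 and AER the value of 4D replicate 1 was the lowest of its age and nearest to 4D 8H. The metallothionein gene MT1B was listed at 0 in 1 of the libraries of 4D 8H.

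Among the largest increases, AT1G12080 had 426 and 436 FPKM at 4D 8H and 209, 214 and 154 FPKM at 4D and AT3G59370 340.2 and 365 FPKM at 4D 8H and 197, 210.3 and 106 FPKM at 4D, with adjusted p-values of 0.0532 and 0.0942. Both carry the same description as AT1G62480, vacuolar calcium-binding protein-related. The increases, like the decreases above, were picked from loci whose ages did not overlap, so the lack of overlap is no result. The bHLH gene AT3G20640 had 14.4 and 12.2 FPKM at 4D 8H and 7.02, 4.85 and 5.75 FPKM at 4D (adjusted p = 0.0518), and AT1G45015, of a lipid recognition family, 15.9 and 16.1 FPKM at 4D 8H and 7.09, 7.69 and 5.66 FPKM at 4D (adjusted p = 0.0698). The remaining genes of the 10 largest increases were PIN3, CLE6 and XTH16 above, AT2G40480 (1.06), AT5G66815 (1.11) and AT3G52055 (1.29), with adjusted p-values up to 0.186.

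The same interval was sampled again 24 h later, from 5D to 5D 8H, in libraries that share none with those above. Of the 15 loci higher at 4D 8H, 14 were also higher at 5D 8H than at 5D, 4 of them at an unadjusted p under 0.05, and the median log2 fold change was 0.22, against 0.91 at the earlier interval. Of the 6 lower loci 5 were lower at 5D 8H, 2 at an unadjusted p under 0.05, with a median of -0.27 against -1.26. Over all 12905 loci 60.59% were higher at 5D 8H, and 883 higher (6.84%) and 747 lower (5.79%) were at an unadjusted p under 0.05. The loci were chosen by their values in the earlier interval, which are therefore given as a description.

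The difference between the intervals was tested in the same fit and 0 of 18087 loci passed the adjusted threshold in limma (0%), with 1031 at an unadjusted p under 0.05 (5.7%). LOG1 fell by 1.46 in the first interval and had -0.51 in the second (unadjusted p = 0.0169), with an adjusted p for the difference of 0.462. UGT74E2 had -0.27 and LEA4-5 -0.27 in the second interval, with adjusted p-values for the difference of 0.486 and 0.421. PIN3 had 1.102 and 0.48 in the intervals of day 4 and day 5, and the hexose carrier gene MSS1 -0.74 and -0.92. WOX5 had -0.76 in the first and -1.22 in the second, at adjusted p-values of 0.27 and 0.103.

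At 4D 16H, a point compared with 4D 8H only through the same 4D 8H libraries, values are given side by side. In FPKM, AGP7 averaged 99.6 ± 11 at 4D, 191 ± 8.81 at 4D 8H and 167 ± 26.2 at 4D 16H (mean ± SD, n = 3, 2 and 3). LOG1 averaged 9.45 ± 3.13, 2.71 ± 0.285 and 4.46 ± 1.28 FPKM at these ages, and SAH7 12.4 ± 2.67, 26.1 ± 2.76 and 22.6 ± 4.69 FPKM. At 6D AGP7 was at 90.3 ± 5.64 FPKM and UGT74E2 at 70.01 ± 18.7 FPKM (SD, n = 3), against 112 ± 7.05 FPKM for UGT74E2 at 4D.

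**Figure D5:**
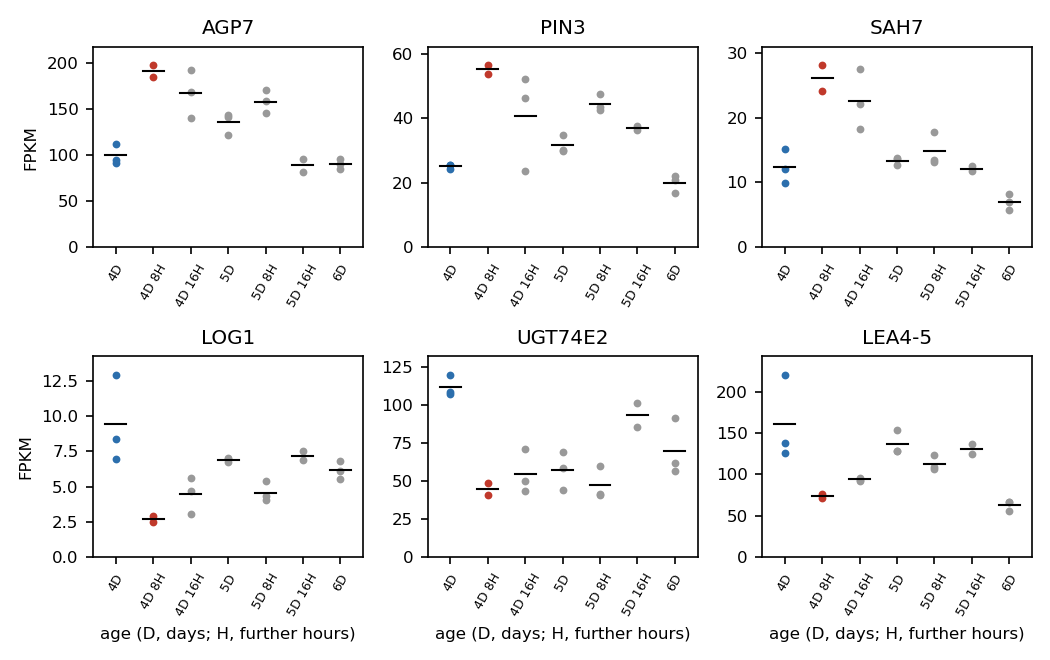
FPKM of AGP7, PIN3, SAH7, LOG1, UGT74E2 and LEA4-5 in each library (points) and the mean (black lines) at the 7 ages in order, with 4D in blue, 4D 8H in red and the others in grey. LOG1 has its lowest mean at 4D 8H, 2.71 FPKM, and its highest at 4D, 9.45 FPKM, and PIN3 its highest at 4D 8H, 55.2 FPKM.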

How the data were processed

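RNA of GFP-negative root tip protoplasts was sequenced in 19 libraries at 7 ages. Per the labels and the submitters' processing notes, the authors used TopHat and Cufflinks with build TAIR10, and the study's methods name Bowtie, the Tuxedo tools and Rsubread. No versions are given in the sources used here. The deposited values are FPKM, which the authors scaled to transcript length and mapped reads. The labels describe about 1 mm of root tip and a stranded kit.

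Groups and replicate numbers came from sample titles. For tests, log2(FPKM + 1) of the 18087 loci averaging 1 FPKM or more was fitted with limma (3.58.1, under R 4.3.3), with 1 mean per age over all 19 libraries and a trend in the variances. The pseudocount understates changes of low genes. The Benjamini-Hochberg threshold was 0.05. The study's methods call the libraries biological replicates but name no separate batches, so p-values measure the spread between these samples. An exact permutation of 2 against 3 libraries cannot go below 0.2 two-sided and was not used. Depth was estimated from steps between low values, of which 43.8% to 47.8% came within 0.05 of whole reads, too few for a count test, and FPKM gives no counting intervals. For 1500 nucleotides 1 FPKM stood for 15.7 to 42.0 reads. In simulated data of 18087 loci with 200 changed, the comparison recovered 78% of changes of 1 and 96% of changes of 2 on the log2 scale, and 5.435% of its calls were false. The simulated noise was normal and independent between loci and libraries, with no uneven depth and no deviation of a whole library. These rates check the procedure only and cannot be carried over to the reported calls, which depended on single libraries.

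Named genes were all calls, the 10 largest changes in each direction without overlap, up to 4 members of each list with the smallest p, and the TCX2 and marker genes. Members, lists and tests were chosen with earlier results of these data known, and wrong matches of symbols were taken out of lists after values were seen. Symbols, lengths and sequences came from RefSeq TAIR10.1. Alternatives were a pseudocount of 0.1, other filters and scalings, other fits and leaving out each library.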

Additional observations from a re-analysis of the deposited data

How the results depend on the processing

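The sign of each of the 21 calls was the same under every alternative in which it was fitted. As the ages did not overlap at these loci, only another scaling or the replicate block could have changed it. AT5G41109 could not be fitted with zeros at high loci set to missing. The number of loci past the threshold was 24 (18 higher, 6 lower) as reported. It was 8 (4 higher) with a pseudocount of 0.1, 63 (47 higher, 16 lower) with only loci of at least 5 FPKM, 4 (4 higher, 0 lower) with no filter, 6 (2 higher) with only the ages compared, 94 (74 higher, 20 lower) without the 5D 16H age, 11 (6 higher) with variances without trend, and 861 (616 higher, 245 lower) with sample weights. Upper quartile scaling gave 28 with 10 lower. With zeros set to missing it was 23. Leaving out 1 library at a time gave 0 to 255 calls, 0 to 200 higher and 0 to 55 lower. The replicate number as a block gave 6 calls (5 higher, 1 lower), all among the 21. The correlations of deviations of same-numbered libraries were 0.104 and 0.0359 over 2 pairs, so the numbers were not shown to pair the libraries. Where an age was left with 1 library, it was assumed to vary like the others.

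The difference between the intervals of day 4 and day 5 gave 0 loci as reported, 3 with quantile normalization, 1 with only the ages compared, 1 without 5D 16H, 55 with sample weights, and 0 to 3 with a library left out. The log2 fold change of TCX2 was -0.0031 with quantile normalization and -0.0325 to 0.2924 with a library left out. That of CRF2 was -0.0241 with quantile normalization. FLP had -0.0192 with upper quartile scaling, -0.1198 with quantile normalization and -0.0653 to 0.1021 with a library left out. The cause of these changes was not tested. Scaling moved the median over the 12905 loci from 0.071 to 0.0249 (upper quartile) and 0.0037 (quantile). Estimated depths of 10.45 to 28 M mapped reads limit loci near 5 FPKM most.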
